A study of Mus musculus with 2 samples.

Results

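Accessible exons outside promoters were 3002 of the 65318 chromatin regions that both ATAC-seq libraries of mouse T cells shared (4.60%; exact 95% interval 4.44 to 4.76). ATAC-seq uses a transposase to cut open chromatin, so a peak marks DNA that was accessible in the sample. A region belonged to the set when overlapping peaks of both libraries merged into it, its strongest summit lay in an exon of a protein-coding gene, and that summit was more than 1000 bp from every protein-coding transcription start. The other shared regions were 13587 at promoters, 25324 in introns and 23405 in intergenic sequence. Only chromosomes 1 to 19 were used, with the mm10 build and the gene models of GENCODE mouse release 21.

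The samples were primary T cells of the mouse strain C57BL/6NJ, in 1 group of 2 libraries with no second condition. The labels give the cells only as T-cell and link a CD4+ differentiation protocol, with sex not collected and age unknown. Peak names in the files carry Th0, a time in hours, "masked" and "ASTARR.insert", none of which the labels explain. That the libraries are ATAC-seq therefore rests on the labels alone, and which sequence was masked, if any, is not given in the sources used here. Both libraries share a donor record, so whether they came from separate animals is not known and their spread may be technical. With 1 group no test between conditions was possible, so shares are given with exact Clopper-Pearson 95% intervals, which cover counting error only. Replicate 1 held 78104 peaks and replicate 2 held 74733, and read depth is unknown because the lists give no read counts. As a check of the labelled cell type, 11 of 12 T-cell markers had a shared promoter region, Cd247 being the exception, beside 2 of 6 B-cell markers (Pax5 and Ebf1), 1 of 6 myeloid markers (Cd14) and 0 of 4 hepatocyte markers. A mixture of cells and a partly open site in every cell cannot be told apart in such bulk samples.

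Exons are read by the ribosome or carry the untranslated ends of messages, and their bases are therefore under constraints that introns do not share. Regulatory DNA is not limited to introns and intergenic sequence: an exon can hold binding sites for transcription factors, an enhancer, or the start of a shorter transcript. In T cells, distal accessible sites often carry motifs of AP-1 (the Fos, Jun and BATF family), ETS and RUNX factors. CTCF, an insulator protein that anchors chromatin loops, binds in many cell types.

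The sequences below show where such matches sit inside exons. For each of AP-1, CTCF, ETS and RUNX they are the 2 strongest of the regions that had a match within 50 bp of the summit and no base annotated as a 5′ or 3′ untranslated part in the printed window, with 1 chromosome left out of the choice. Stronger regions outside these conditions are not printed, and 4 of the 8 windows lie in noncoding transcripts and hold no coding base. Each is 100 bp around the summit, 5′ to 3′ on the plus strand of mm10. Capitals mark matches to the motif named for that window alone, and words of other motifs are left in lower case. The AP-1 consensus was TGANTCA, the ETS consensus CCGGAAG and the RUNX consensus TGTGGTT, each searched on both strands, and CTCF stands for its core consensus. The AP-1 consensus is also the end of the longer BATF-IRF element, so every BATF-IRF match holds an AP-1 match.
Sun1 (AP-1): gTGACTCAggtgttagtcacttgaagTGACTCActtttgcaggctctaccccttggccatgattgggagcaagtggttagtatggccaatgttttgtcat
Ankrd17 (AP-1): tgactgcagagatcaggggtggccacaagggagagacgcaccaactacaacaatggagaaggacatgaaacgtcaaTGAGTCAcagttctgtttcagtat
Zscan10 (CTCF): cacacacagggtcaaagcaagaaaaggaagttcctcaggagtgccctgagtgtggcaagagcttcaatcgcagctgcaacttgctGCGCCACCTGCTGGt
Synpo2l (CTCF): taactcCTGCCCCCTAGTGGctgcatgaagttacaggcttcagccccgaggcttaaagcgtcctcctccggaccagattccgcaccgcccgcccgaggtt
Pomc (ETS): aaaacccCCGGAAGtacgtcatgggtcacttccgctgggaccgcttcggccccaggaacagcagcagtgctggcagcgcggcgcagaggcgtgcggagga
Plin1 (ETS): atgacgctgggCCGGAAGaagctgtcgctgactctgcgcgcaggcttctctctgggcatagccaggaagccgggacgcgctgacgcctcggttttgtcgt
Rapsn (RUNX): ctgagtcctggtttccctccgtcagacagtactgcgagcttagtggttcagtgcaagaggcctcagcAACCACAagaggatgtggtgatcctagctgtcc
Tnip3 (RUNX): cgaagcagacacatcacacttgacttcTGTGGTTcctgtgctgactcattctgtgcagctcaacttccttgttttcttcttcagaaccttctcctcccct

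The Sun1 window (chr5:139215374-139215473) lies in exon 2 of 2 of a transcript that retains an intron and holds 2 AP-1 matches. Its peak signal, the authors' fold value for the peak, was 18.1 in replicate 1 and 16.4 in replicate 2. Sun1 encodes a nuclear envelope protein that links the nucleus to the cytoskeleton. The Ankrd17 window (chr5:90271402-90271501) lies in a retained-intron transcript of 1 exon, with signals of 17.0 and 15.3.

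Both CTCF windows are coding throughout. The Zscan10 window (chr17:23610626-23610725) is in exon 6 of 6 of a gene for a zinc finger transcription factor, with signals of 17.9 and 17.3. The Synpo2l window (chr14:20661154-20661253) is in exon 4 of 4 of a gene for an actin-associated muscle protein, with signals of 15.1 and 14.7. Both ETS windows are coding throughout as well. Pomc, the precursor of corticotropin and other peptide hormones, had signals of 16.3 and 16.8 in exon 4 of 4 (chr12:3959975-3960074). Plin1, a coat protein of lipid droplets, had 14.3 and 13.9 in exon 9 of 9 (chr7:79721473-79721572).

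The RUNX windows lie in transcripts that retain an intron. Rapsn, which clusters acetylcholine receptors at the muscle synapse, had signals of 16.5 and 15.6 (chr2:91042781-91042880), with 96 of the 100 bases in an exon. Tnip3, a binding partner of the NF-kB inhibitor A20, had 16.8 and 14.3 (chr6:65594318-65594417). The Tnip3 window also holds the AP-1 word TGACTCA, in lower case above. All 8 printed regions had a signal far above the median exonic region in both libraries, because the rule took the strongest.

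The exonic regions fell mostly into coding sequence and 3′ untranslated parts. Of the 3002 summits, 1128 lay in coding sequence (37.6%; 35.8 to 39.3), 57 in a 5′ untranslated part (1.90%; 1.44 to 2.45), 1090 in a 3′ untranslated part (36.3%; 34.6 to 38.1) and 727 only in an exon of a noncoding transcript of the gene (24.2%; 22.7 to 25.8). Among the exon bases more than 1000 bp from a start, 36.7% are coding, 0.961% 5′ untranslated, 40.5% 3′ untranslated and 21.8% noncoding. The split of summits was thus within a few percentage points of the split of exon bases. Only for coding sequence did the base share lie inside the interval of the summit share. It lay below the interval for 5′ untranslated parts and noncoding exons, and above it for 3′ untranslated parts. Of the 727, 554 were in transcripts annotated as retained introns and 173 in processed transcripts, so their sequence is intronic in the coding transcripts of the same genes or outside them. The summit was exonic in every protein-coding transcript that spans it in 2016 regions (67.2%) and in some of them in 217 (7.23%).

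Exons held more shared regions per base than the rest of the genome outside promoters. There were 38.9 per Mb over 77.1 Mb of exon sequence, compared with 29.1 per Mb of intron and 16.1 per Mb of intergenic sequence. Promoter sequence held 220.8 per Mb. Within exons the density was 39.8 per Mb in coding sequence, 34.9 in 3′ untranslated parts, 43.2 in noncoding transcript exons and 76.9 in 5′ untranslated parts, where it rests on 57 regions. These densities place each region at the single base of its strongest summit. Sequence lengths were taken over whole chromosomes, with assembly gaps and repeats left in. Density at matched distances from a start was not counted.

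A coding region was often wider than its exon. The median width was 724 bp over all 3002 regions and 790.5 bp for the coding ones, and intron regions had a median of 685 bp. The median exon under a coding summit was 292.5 bp long, and the region covered the whole exon in 638 of 1128 cases (56.6%; 53.6 to 59.5). Over all 3002 regions it did so in 886 (29.5%), and in 3′ untranslated parts in 5.32%, with a median exon length of 1595 bp over all regions. A median of 56.2% of the bases of a coding region were exonic, and the figure was 100% for 3′ untranslated regions, whose exons had a median length of 2814 bp. Last exons held 1746 of the summits (58.2%), internal exons 828, first exons 220 and single-exon transcripts 208. A transcript end was within 1000 bp of the summit in 1136 regions (37.8%) and in 66.5% of the 3′ untranslated ones. The last exons under a summit had a median length of 2371.5 bp and the internal ones 185 bp. The share of exon bases in each exon position or near a transcript end is not given here, so these counts show no preference.

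Some of these regions lie near starts that the rule did not use. Within 1000 bp of the summit there was a noncoding gene's start in 132 regions. In 557 there was a start of a protein-coding gene's transcript that is not itself annotated as protein-coding, and 658 had at least 1 of these starts (21.9%; 20.5 to 23.4). In noncoding transcript exons that share was 42.8%, and in 3′ untranslated parts it was 7.52%. RefSeq, a second annotation of the same build, placed the start of a curated messenger RNA within 1000 bp of 38 of the 3002 summits (1.27%), or of 131 when its predicted messages were included (4.36%). The 38 had median signals of 8.52 and 7.77, compared with 6.12 and 5.85 for the others. They were most frequent among 5′ untranslated regions, at 9 of 57, and rare among 3′ untranslated ones, at 1 of 1090.

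At the limit of the rule, the nearest regions inside the set were 1007 bp from a start in Tmem95 (signals 5.17 and 4.94), 1008 bp in C2cd4a (8.41 and 6.28) and 1013 bp in Saa3 (4.24 and 5.09). The nearest exonic regions left out were 991 bp from a start in Ggta1 (2.12 and 2.54), 984 bp in Plcxd1 (5.24 and 4.81) and 983 bp in Slc22a18 (4.55 and 3.19). The limit therefore divides regions of overlapping signal.

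Both libraries detected most exonic regions. Of 4031 exonic regions called in either library, 3002 were in both (74.5%; 73.1 to 75.8), 641 in replicate 1 alone and 388 in replicate 2 alone. The share in both was 74.2% for intron regions, 77.5% for intergenic regions and 94.9% for promoters. Across the 3002, log2 signal in replicate 1 tracked that in replicate 2 (Pearson's r = 0.948, Spearman's rho = 0.947), given as a description because all points share the same libraries. Replicate 1 exceeded replicate 2 by a median ratio of 1.03, log2 ratios had an SD of 0.24, and a gap above 2-fold was seen in 4 regions. The summits of the libraries lay a median of 19 bp apart and within 50 bp of each other in 68.4% of regions, and this share was 64.3% for coding regions and 71.5% for 3′ untranslated ones.

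**Figure D1:**
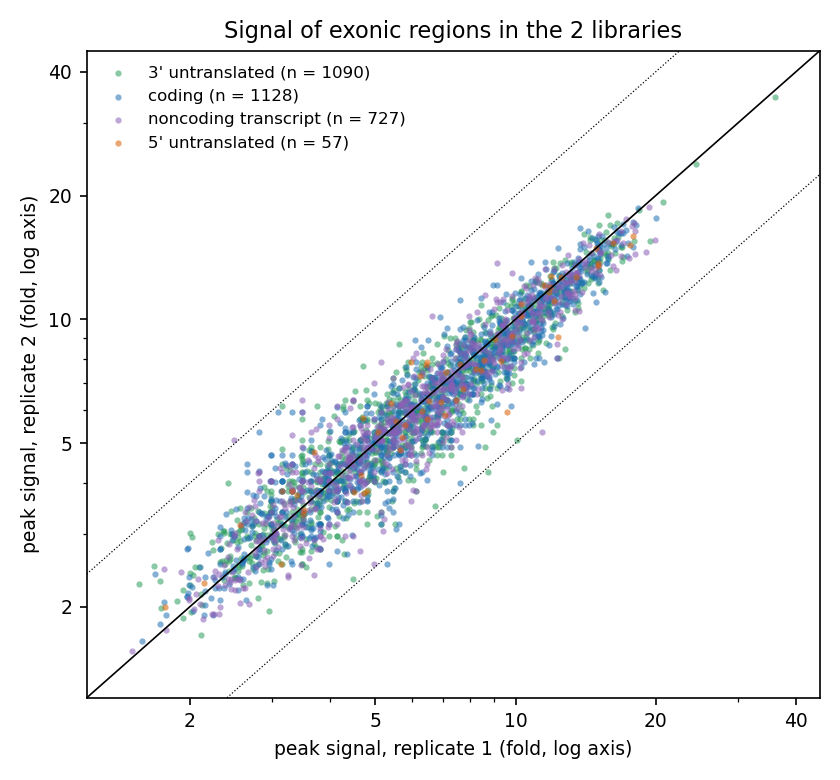
Peak signal (fold, log axes) of each of the 3002 exonic regions in replicate 1 (x) and replicate 2 (y), coloured by where the summit lies. The solid line marks equal signal and the dotted lines a 2-fold difference, which 4 regions exceeded. The point at the upper right is the Lars2 region, at 36.01 and 34.81.

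Of the 5 largest differences between libraries, 4 were lower in replicate 2. Upp2, a uridine phosphorylase gene, had 11.4 in replicate 1 and 5.30 in replicate 2. Cpsf2, a subunit of the complex that cleaves pre-mRNA for polyadenylation, had 5.30 and 2.55. Pigb, an enzyme of GPI anchor synthesis, had 2.48 and 5.09, the only one of the 5 that was higher in replicate 2. Camkk2, a calcium-dependent kinase, had 8.73 and 4.26. The widest of these gaps was 2.15-fold.

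The signal of exonic regions was close to that of intron regions. Its median was 6.12 in replicate 1 and 5.88 in replicate 2, compared with 6.45 and 6.20 in introns, 7.11 and 6.79 in intergenic sequence and 10.8 and 10.3 at promoters. The ratio of the exon to the intron median was 0.949 in replicate 1 and 0.948 in replicate 2. By position, coding regions had medians of 6.45 and 6.15, 5′ untranslated regions 6.91 and 6.77, 3′ untranslated regions 5.93 and 5.70 and noncoding transcript exons 6.03 and 5.73. Within each library the middle 50% of exonic regions, 4.12 to 9.14 in replicate 1 and 4.03 to 8.65 in replicate 2, overlapped that of introns, 4.43 to 9.48 and 4.28 to 9.12.

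**Figure D2:**
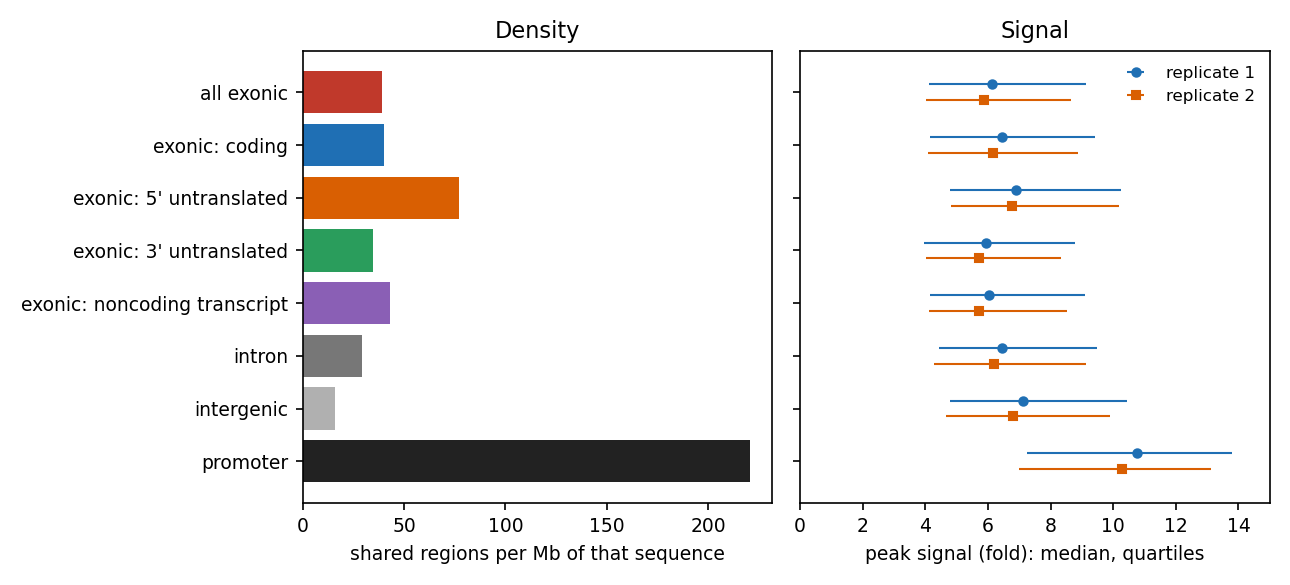
Left, shared regions per Mb of each kind of sequence, from a bar origin at 0, with exons, introns and intergenic sequence counted only more than 1000 bp from a protein-coding start. Right, median peak signal (fold) with quartile range for replicate 1 (circles) and replicate 2 (squares). Exonic density exceeded that of introns, 38.9 against 29.1 per Mb, and their signals overlapped.

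Distance from a start moved with the signal of both exonic and intronic regions. Exonic regions were closer to starts, with a median distance of 9942 bp compared with 18148 bp for intron regions. At 1 to 2 kb from a start, 309 exonic regions had median signals of 5.17 and 5.05, and intron regions had 5.18 and 5.13. At 2 to 5 kb the exonic medians were the higher ones in both libraries, 5.603 and 5.33 compared with 5.42 and 5.30. At 5 to 20 kb, 1344 exonic regions had 6.22 and 5.94 compared with 6.53 and 6.31, at 20 to 50 kb 6.73 and 6.31 compared with 6.76 and 6.41, and beyond 50 kb, 230 had 6.90 and 6.47 compared with 6.89 and 6.58. The exonic median was thus above the intron median in both libraries only at 2 to 5 kb. Beyond 50 kb it was slightly above in replicate 1 and below in replicate 2, and in the other ranges it was below in both libraries.

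**Figure D3:**
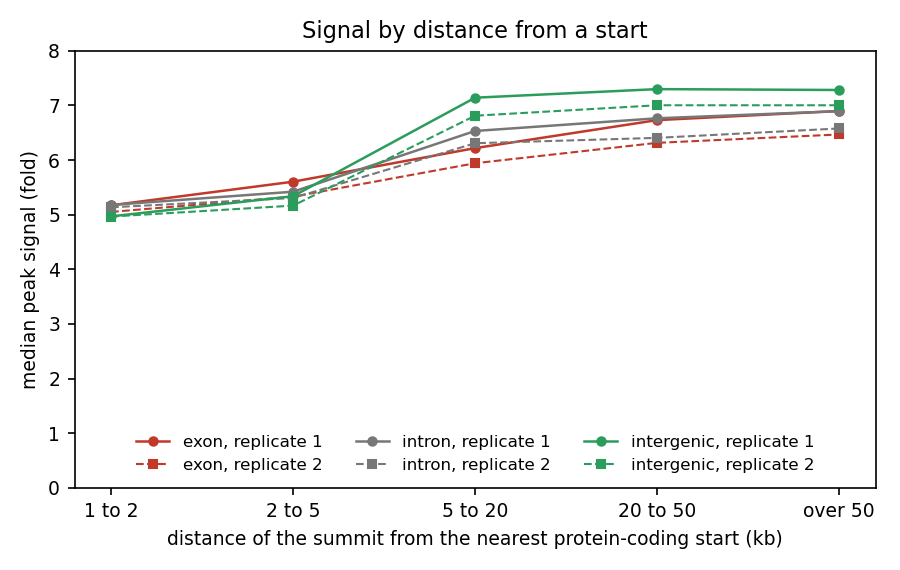
Median peak signal (fold) of exonic, intronic and intergenic regions in 5 ranges of distance (kb) from the nearest protein-coding start, in replicate 1 (solid) and replicate 2 (dashed). Exonic medians went from 5.17 and 5.05 at 1 to 2 kb to 6.90 and 6.47 beyond 50 kb.

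The strongest exonic regions came from genes of varied function. The highest was in the last exon of Lars2, the mitochondrial leucyl-tRNA synthetase, at chr9:123461798-123462184, with 36.01 in replicate 1 and 34.81 in replicate 2. This region is 387 bp wide, and 58.2% of its 36-base words occur elsewhere in the assembled chromosomes. Gja5, the gap junction protein connexin 40, followed with 24.4 and 23.9 in its last exon (chr3:97076106-97076921), where 45.5% of the words have another copy. Cyp4f16, a cytochrome P450 gene, had 20.7 and 19.3 (chr17:32550743-32551610) with 22.6% of its words repeated. The 3 strongest regions are thus all in 3′ untranslated parts and all hold sequence with another copy in the genome, and the part of those copies in the signal was not tested.

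Of the other regions among the 10 strongest, Zfand1 had 1.58% of its 36-base words repeated and the remaining ones 0%. Nedd4l, a ubiquitin ligase gene, had signals of 19.4 and 18.8 with an AP-1 match at its summit. Tgm3, a transglutaminase gene of skin, had the highest coding signal, 19.98 and 17.63, in exon 7 of 13 (chr2:130029614-130030284), also with an AP-1 match. The axonemal dynein gene Dnah12 had 18.4 and 18.7 in exon 28 of 74 (chr14:26773249-26774038). These coding exons are short, 136 and 246 bp, so each region reaches into the introns beside it.

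Wfikkn2, a secreted inhibitor of growth factors of the myostatin group, had 18.4 and 18.5 with a CTCF match. Zscan10 also held a CTCF match, and it was the third coding region in order of signal. Cecr2, a bromodomain protein of chromatin remodelling complexes, had 19.9 and 15.6. Zfand1, a zinc finger protein gene, had 17.99 and 17.15. Both of these lay in exons of retained-intron transcripts, and the Cecr2 summit was 991 bp from the start of a transcript not annotated as protein-coding.

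The strongest 5′ untranslated regions included some at starts of other annotations. Sf3b5, a subunit of the spliceosome, had 17.9 and 15.9 (chr10:13007995-13009038), and its summit was 49 bp from a curated RefSeq start although 3058 bp from the nearest GENCODE protein-coding start. Arsa, the lysosomal enzyme arylsulfatase A, had 16.2 and 15.4, with its summit 7 bp from a noncoding gene's start. Zbtb20, a zinc finger repressor, had 17.6 and 15.1 (chr16:43458545-43459260), with its summit 38611 bp from a noncoding gene's start and 41083 bp from any RefSeq start, and held an AP-1 match.

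GC content at exonic summits was between that of introns and promoters. The median over 200 bp was 52.5% for exonic regions, 48% for introns and 65% for promoters. Coding summits had 58.5%, 3′ untranslated summits 50% and noncoding transcript exons 49.5%. Windows centred 500 bp to each side had 50.5% for coding regions and 45% for introns. CpG-island-like sequence was taken as a GC content of at least 55% and a CpG ratio of at least 0.65 over the 200 bp. It was present in 486 exonic regions (16.2%; 14.9 to 17.6), close to the 16.4% of all shared regions. It made up 34.6% of coding regions (31.8 to 37.4), 3.39% of 3′ untranslated ones, 1.196% of introns and 66.4% of promoters. Any repeat-masked base was found at 45.2% of exonic and 57.4% of intronic summits.

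AP-1 was the most frequent of the 4 main motifs, but less so in exons than in introns. A match lay within the 200 bp at the summit in 607 of 3002 exonic regions (20.2%; 18.8 to 21.7), beside 24.7% of all shared regions, 31.3% of introns (30.8 to 31.9) and 5.32% of promoters. The share was 12.9% in coding regions (11.0 to 14.9), 24.1% in 3′ untranslated ones (21.6 to 26.8) and 25.7% in noncoding transcript exons (22.6 to 29.1). In the flanking windows it was 5.01% for all exonic regions, 4.21% for coding ones and 5.61% for introns. The share at the summit was thus 3.05 times that of the flanks in coding regions and 5.58 times in introns. Exonic regions with a match had median signals of 6.91 and 6.44, compared with 5.96 and 5.73 without. The intervals of coding and 3′ untranslated regions did not overlap.

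CTCF matches were found in 173 exonic regions (5.76%; 4.96 to 6.66), beside 4.22% of all shared regions. The share was 7.98% in 3′ untranslated regions, 4.61% in coding ones, 4.37% in introns and 5.76% in intergenic sequence, and it was 0.0666% in the flanking windows of exonic regions. Regions with a CTCF match had median signals of 7.41 and 6.90, compared with 6.06 and 5.80 without. The match lay on the gene's sense strand in 72 of the 173 and on the other strand in 101 (41.6% sense; 34.2 to 49.3). The strand split of CTCF words in other regions or in all exon sequence is not given here. Whether 41.6% is particular to these regions was therefore not tested.

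The ETS consensus was matched in 97 exonic regions (3.23%; 2.63 to 3.93), beside 4.18% of all shared regions, with 4.70% in coding regions, 1.45% in introns and 13.2% at promoters. KLF/SP (GGGCGGG) was matched in 8.16% of coding regions, 3.19% of introns and 38.3% of promoters, beside 11.2% of all shared regions. EGR (GTGGGCG) was matched in 5.67%, 2.07% and 10.6%, beside 4.05% of all shared regions. The CCGGAAG, KLF/SP and EGR words were commoner in coding regions than in introns. The flanking windows differed the same way, at 1.60%, 4.17% and 2.08% for coding regions and 0.705%, 1.57% and 0.851% for introns. YY1 (AAGATGGCG), matched in 2.22% of promoters and 0.645% of all shared regions, was in 0 of 1128 coding regions and 0.166% of introns. The KLF/SP and EGR words can overlap by the letters GGGCG. The other KLF word searched, CCACCC, was matched in 17.8% of coding regions and 16.4% of introns, beside 18.8% of all shared regions. In the coding flanks that word was at 19.4%. The E-box CAGCTG was matched in 20.3% of coding regions and 13.2% of introns, beside 12.9% of all shared regions, with 12.01% in the coding flanks. RUNX was matched in 250 exonic regions (8.33%; 7.36 to 9.37), beside 8.86% of all shared regions and 10.8% of introns, with 4.71% in the flanks.

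**Figure D4:**
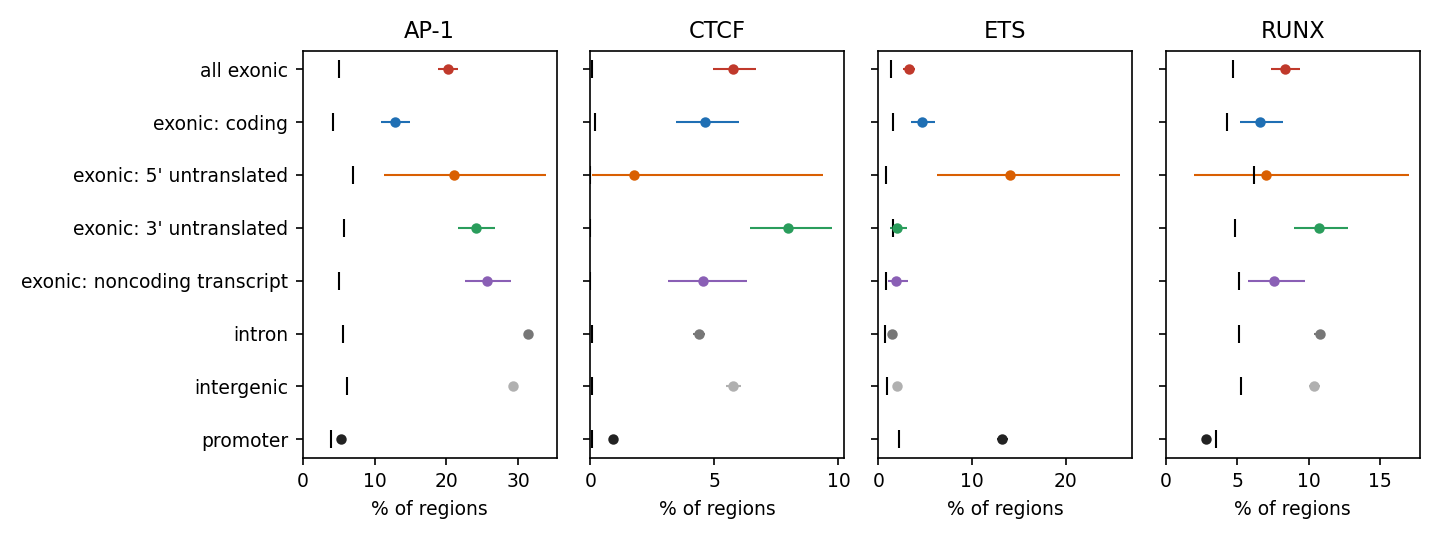
Share (%) of regions with a match within the 200 bp at the summit for AP-1, CTCF, ETS (CCGGAAG alone) and RUNX, by kind of region. Points are shares, bars exact 95% intervals for counting error, and upright ticks the share in windows of the same length 500 bp to each side. AP-1 was at 12.9% in coding regions, 24.1% in 3′ untranslated ones and 31.3% in introns.

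The lower AP-1 share of coding regions stood beside fewer AP-1 words in coding sequence. Coding sequence outside promoters holds 222 AP-1 matches per Mb, and introns hold 321. Of 6289 such coding matches 293 lay in a shared region (4.66%; 4.15 to 5.21), compared with 5.66% of intron matches and 5.96% of 3′ untranslated ones. The ETS word CCGGAAG was placed the other way, at 159 per Mb of coding sequence and 27.9 per Mb of intron, and 4.85% and 4.63% of its matches lay in a shared region. CTCF matches were few but mostly accessible, with 196 of 336 exonic ones in a shared region (58.3%; 52.9 to 63.7). That share was 62.7% in 3′ untranslated parts, 52.9% in coding sequence and 52.5% in introns.

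The reading frame limits where an AP-1 word can lie in a coding exon. TGA is a stop codon, so TGANTCA cannot start at the first base of a codon, and 0 of 7268 in-frame coding matches did. Of these, 3731 (51.3%) started at the second base and 3537 (48.7%) at the third. Of the 104 matches within 100 bp of a coding summit, 31 started at the second base and 73 at the third (70.2%; 60.4 to 78.8). The central base was G or C, as in the canonical AP-1 site, in 81.7% of these (72.9 to 88.6) and in 52.1% of all coding matches.

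**Figure D5:**
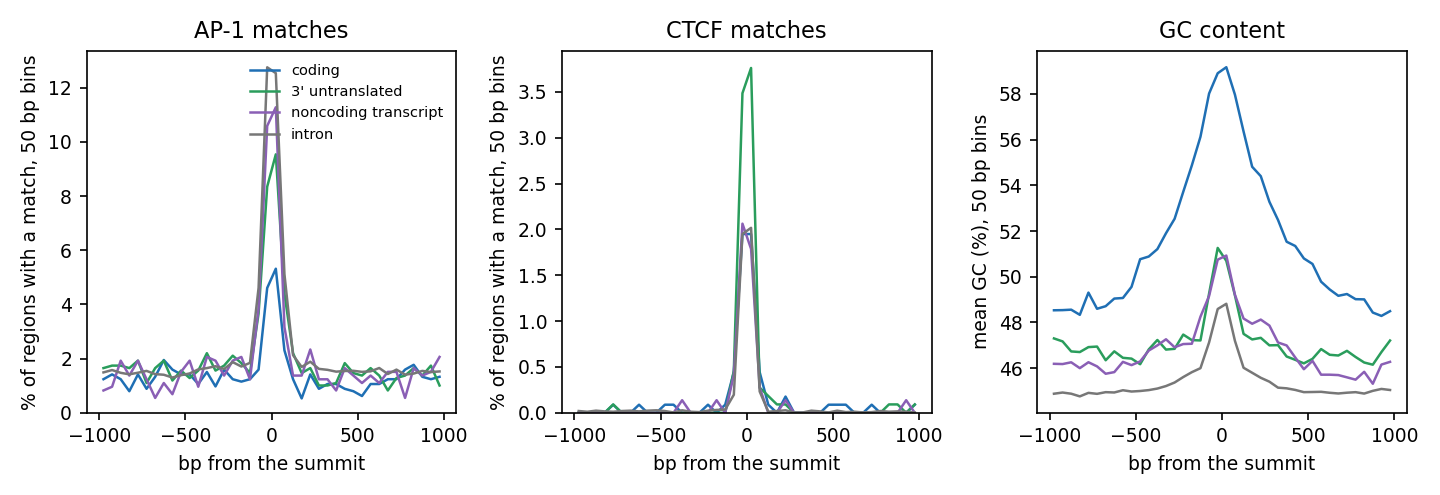
Left and centre, share (%) of regions with an AP-1 or CTCF match in each 50 bp bin by distance (bp) from the summit; right, mean GC content (%) in the same bins. Lines are coding, 3′ untranslated and noncoding transcript exonic regions and intron regions. In the bin just after the summit AP-1 was at 5.32% in coding, 9.54% in 3′ untranslated and 12.5% in intron regions, and mean GC in the same bin was 59.2% in coding and 48.8% in intron regions.

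The exonic regions were spread over many genes. Of 20780 protein-coding gene names, 2705 had at least 1 region in an exon (13.0%), 2407 of them with 1 region, 264 with 2 and 34 with 3 or more. In 38 cases the summit lay in exons of 2 or more genes. Sptbn4, Xpo6 and Zbtb20 had 4 each. Sptbn4, the spectrin of axon initial segments, had all 4 in internal coding exons (14, 17, 23 and 27 of 36), with signals of 11.1 and 10.4, 10.4 and 9.77, 6.61 and 4.81, and 2.65 and 3.47. Xpo6, an exporter of actin from the nucleus, had all 4 in retained-intron exons, with signals between 2.04 and 8.15. Zbtb20 had 3 of its 4 in its last exon, which is 24280 bp long. Among the 31 other genes with 3 or more, Ccnt2, a cyclin that activates transcription elongation, had signals of 9.11 and 9.19 at its strongest, and 4932438A13Rik had 5.85 and 7.31.

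Genes of T-cell function were counted by lists, with the 13.0% of all protein-coding genes as background and no list test. Of 28 T-cell surface genes 9 had an exonic region, as did 9 of 29 genes of T-cell receptor signalling, 14 of 48 T-cell transcription factors, 10 of 44 cytokine, chemokine and receptor genes and 5 of 16 adhesion genes. For comparison, 3 of 18 housekeeping genes, 4 of 15 B-cell genes, 4 of 14 muscle genes and 5 of 15 neuron genes had one, and 0 of 17 myeloid and 0 of 11 cytotoxic granule genes. Per Mb of exon, T-cell surface genes held 96.3 regions, receptor signalling 72.5, T-cell factors 68.4, cytokine genes 116, adhesion genes 56.9 and cytotoxic granule genes 0, beside 38.9 over all exons. Housekeeping genes held 59.0, B-cell genes 63.9, neuron genes 58.8, muscle genes 30.2 and the Hox clusters 122. Median signals were 3.99 and 3.84 for T-cell surface genes, 4.11 and 4.11 for receptor signalling and 3.04 and 4.34 for T-cell factors. Cytokine genes had 5.82 and 5.18, adhesion genes 3.79 and 3.71 and housekeeping genes 3.72 and 3.85. All of these lay below the 6.12 and 5.88 of all exonic regions. B-cell (7.53 and 7.35), muscle (8.37 and 7.77) and neuron genes (8.42 and 6.30) lay above. The lists are short, and the intervals of their shares are wide: 15.9% to 52.4% for T-cell surface genes and 11.8% to 61.6% for neuron genes.

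The strongest regions of the T-cell lists lay in all kinds of exon. Cd28, the main costimulatory receptor, had 8.68 and 7.48 in its last exon (chr1:60771308-60772379), with an AP-1 match. Cd3e, a signalling chain of the T-cell receptor, had 5.34 and 5.28 in its last exon, with its summit 64 bp from a noncoding gene's start. Both were among the 3 strongest of the surface genes, and each lay within the middle 50% of all exonic regions in both libraries.

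Among signalling genes, Plcg1, the phospholipase that makes second messengers after receptor triggering, had 11.0 and 9.07 in a noncoding transcript exon. Themis, an adaptor of thymocyte selection, had 9.42 and 9.80 in its last exon, with both an AP-1 and a RUNX match. Prkcq, the protein kinase C of the T-cell synapse, had 8.75 and 7.15 in coding exon 10 of 18. Among transcription factors, Tox had 8.44 and 9.22 in coding exon 8 of 9. Its summit was 234562 bp from a protein-coding start but 518 bp from the start of a transcript not annotated as protein-coding. Zbtb7b, which encodes the CD4-lineage factor ThPOK, had 7.59 and 7.58 in its last exon with AP-1 and CTCF matches, and Bach2, a repressor that restrains effector differentiation, had 5.27 and 6.27.

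Among cytokine receptor genes, Il1r1, the interleukin 1 receptor, had 14.6 and 12.7 in its last exon. Il6st, the shared signalling chain of the interleukin 6 family, had 7.49 and 7.38 in its last exon with a RUNX match, and the chemokine receptor Ccr6 had 6.91 and 6.30 in a 5′ untranslated exon with an AP-1 match. Among adhesion genes, the integrin chain Itgb7 had 13.8 and 12.2 in coding exon 3 of 15, Cd47 6.87 and 6.49 in coding exon 7 of 10, and the actin regulator Coro1a 3.79 and 3.71. The Coro1a summit was 17 bp from the start of a transcript not annotated as protein-coding.

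Chromatin genes had regions in all kinds of exon. The DNA methylation and histone modification list had 8 of 23 genes with a region, 5 of the 8 regions coding, and the list of BAF remodelling subunits 3 of 15. Per Mb of exon these lists held 40.5 and 40.3 regions, close to the 38.9 over all exons. Tet2, a dioxygenase that oxidises methylcytosine, had 11.1 and 10.2 in exon 11 of 11. Kmt2a, a histone H3 methyltransferase, had 8.22 and 8.21 in exon 11 of 36. Ezh2, the methyltransferase of the Polycomb complex, had 8.177 and 8.596 in a noncoding transcript exon. Its summit was 569 bp from the start of a transcript not annotated as protein-coding. Arid1a, a BAF subunit, had 7.55 and 7.34 in coding exon 20 of 20 with an AP-1 match, Arid1b 5.98 and 5.06 and Smarca2 5.69 and 4.54.

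Genes of other lineages also had exonic regions. The creatine kinase gene Ckm had 14.73 and 13.96 in its last exon, 45 bp from a noncoding gene's start. The titin gene Ttn had 10.1 and 10.2 in exon 8 of 347, and the ryanodine receptor gene Ryr1 8.37 and 7.77 in exon 91 of 106. Apoa1, a lipoprotein gene of liver, had 11.3 and 11.6 in coding exon 4 of 4, 1426 bp from a start, and was the only one of 14 hepatocyte genes. The neuronal receptor gene Grin1 had 10.9 and 9.88, Camk2a 10.1 and 9.10 and Rbfox3 9.83 and 6.99. Several of these signals exceeded those of Cd28 and Cd3e in both libraries.

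Of 39 Hox genes 8 had an exonic region. Hoxb2 led with 11.0 and 9.12, Hoxb3 had 5.96 and 5.94 and Hoxb6 4.81 and 3.64, all on chromosome 11. Among B-cell genes, Spib had 8.54 and 7.60, Blnk 7.28 and 7.48 and Cd22 7.78 and 5.73. The strongest housekeeping gene, Tbp, had 5.14 and 5.58, and Gusb and Tubb5 had less than 4 in both libraries.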

How the data were processed

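ATAC-seq peaks of 2 libraries of mouse T cells were deposited as narrowPeak lists on mm10, called on each library apart, per the labels and the deposited notes. The aligner, caller, versions and threshold are not given in the sources used here. The authors' signal value of each peak is a ratio, read here as fold enrichment from its values. The authors' −log10 q was at least 1.02 in replicate 1 and 1.01 in replicate 2, as deposited. Neither value is scaled between libraries as far as stated, and depth per library is unknown, so absence from a list may only mean a signal under the caller's limit.

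Peaks on chromosomes 1 to 19 (76230 and 72904) were merged where they shared at least 1 bp, and each region took the summit with the higher signal. Summits were classed as promoter, exon, intron or intergenic, in that order. Exonic summits were then classed as coding, 5′ untranslated, 3′ untranslated or noncoding transcript, in that order. Of the 24 consensus motifs searched on both strands, those the comparisons use are spelled out beside their values or given by name. Gene lists, 15 with 346 of 356 genes matched, were counted by symbol. Named regions are the 10 strongest, the 3 strongest of each kind of exon and of each list, the 5 genes with the most regions, the 5 largest library differences and the 3 nearest the distance limit on each side, of which 2 regions are not reported here. Regions and lists were chosen with earlier results of these data known. The counts of RefSeq starts, repeated 36-base words and AP-1 codon positions were added after values had been seen. The scripts were tested on simulated data and used Python 3.11.15, numpy 2.4.6, pandas 2.3.3, scipy 1.17.1 and pysam 0.24.0.

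Alternatives were start distances of 500 and 2000 bp, a −log10 q of at least 5, an overlap of 50% of both peaks, exons of protein-coding transcripts alone, starts of every transcript, agreement of both summits, other motif windows and each library alone.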

Additional observations from a re-analysis of the deposited data

Results flagged for a closer look

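Chromosome X was outside the regions described. By the same rule it held 38 exonic regions outside promoters among 1513 regions shared by both libraries (2.51%), 13 of them coding. Their median signals were 6.04 in replicate 1 and 5.26 in replicate 2. They are given here because they are signal in data that the comparisons did not use.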

How the results depend on the processing

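The number of exonic regions (3002) and of genes holding 1 (2705) stayed within 1.5 times under every alternative, between 2233 and 3683 regions and between 2091 and 3225 genes. Shares and medians are given where they moved by at least the SD of the 2 single-library values, a narrow limit because it rests on 2 values. The values under the settings used above were a coding share of 37.6%, a 3′ untranslated share of 36.3%, a mean of the library medians of 6.00 for signal, an exon to intron ratio of 0.948, a median GC of 52.5% and motif shares of 20.2% for AP-1, 5.76% for CTCF, 3.23% for ETS and 8.33% for RUNX. With a start distance of 500 bp, coding was 39.4%, 3′ untranslated 33.9%, signal 6.02, GC 53.0%, AP-1 19.1% and RUNX 8.00%, and with 2000 bp coding was 35.9%, 3′ untranslated 38.8%, signal 6.11, GC 52.0% and RUNX 8.24%. With a −log10 q of at least 5, signal was 6.60, the ratio 0.967 and AP-1 21.2%, and with an overlap of 50% of both peaks signal was 6.30, the ratio 0.967 and AP-1 20.8%. With exons of protein-coding transcripts alone, which drops the noncoding class by construction, coding was 50.2%, 3′ untranslated 47.3%, signal 6.09, the ratio 0.965, GC 53.5%, AP-1 18.2% and RUNX 8.55%. With starts of every annotated transcript, 3′ untranslated was 43.0%, signal 5.95, the ratio 0.941, GC 51.5%, AP-1 21.3%, CTCF 6.36% and RUNX 8.62%. With summits of both libraries in an exon, coding was 35.0%, 3′ untranslated 38.5%, signal 6.12, the ratio 0.966, AP-1 20.8% and RUNX 8.53%. In 100 bp windows GC was 54.0%, AP-1 14.7%, CTCF 4.76%, ETS 1.87% and RUNX 4.73%, and in 400 bp windows GC was 51.0%, AP-1 24.4%, ETS 5.13% and RUNX 12.5%, since a longer window holds more words. With 1 library alone, the ranges were 36.1% to 37.3% for coding, 37.2% to 38.6% for 3′ untranslated, 5.30 to 5.31 for signal, 0.933 to 0.941 for the ratio, 52.0% for GC in both, 19.36% to 20.01% for AP-1, 5.00% to 5.69% for CTCF, 2.74% to 3.42% for ETS and 7.74% to 7.79% for RUNX. The exon to intron ratio was below 1 in all of these. Where no construction is named, the cause of a move was not tested. No paired analysis was possible because there is 1 group. Without read counts, depth limits which weak regions could be called.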
